A study of Rattus norvegicus with 8 samples.

Results

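The 10 genes studied here, which were dim or absent in control liver and bright in furan liver, form a mixed group: Npw, Slc5a9, Doc2a, Nefm, Tcfl5, Rbpjl, Ropn1, Ica1, Ddit4l and Nme4. They were chosen by symbol for that contrast on these arrays, and 10 genes (11 probes) were therefore examined, of 18353 named genes and 30197 probes with a usable spot on every array. The furan and control levels of the 10 genes are given as a description, with no test, since they chose the genes. All the animals were male Fisher 344 rats, 18 weeks old when killed. The 4 furan samples came from rats gavaged with furan, 8 mg for each kg of body weight, 5 times a week over 90 days, and the 4 control samples from control rats, for which the labels name no vehicle. Livers were taken 24 h after the final dose and snap-frozen. Each sample was read on its own 1-colour array. The labels call the 4 samples of a group replicates and do not say that each is another rat, so p-values measure the spread between these samples, which may be technical; each sample is called a liver here.

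The 10 genes are best known outside the hepatocyte. Npw encodes a secreted neuropeptide, Doc2a and Ica1 act at secretory vesicles, Nefm builds the axonal cytoskeleton, Tcfl5 and Ropn1 belong to the male germ line, and Rbpjl to the acinar cells of the pancreas. Slc5a9 carries sugars, Ddit4l restrains the growth-promoting kinase complex mTORC1, and Nme4 makes nucleoside triphosphates in mitochondria. Furan, a volatile ring compound formed in heated food, is toxic to rat liver after liver enzymes open it to a reactive dialdehyde.

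Levels are log2 signals set against each array's own 75th percentile, so a level of 0 is as bright as that percentile, and a difference of 1 is a doubling. They compare arrays for 1 probe, not 1 probe with another. A spot is well above background where the scanner software marked it so, and 73.2% to 78.5% of gene spots were so marked on the furan arrays, against 70.9% to 74.8% on the control arrays. The 75th percentile itself was 1256 to 1596 intensity units on the furan arrays and 827 to 1057 on the control arrays. Arrays 1 and 2 of each group shared slide 1, and arrays 3 and 4 shared slide 2. Hepatocyte markers were bright on every array, as the tissue label has it, and 9 of 10 of them were lower after furan. Of 17226 features tested, 18.0% were called higher and 17.5% lower after furan at an adjusted p under 0.05 (limma), 35.5% in either direction, so a call in this comparison was common. The counts of called genes in each list below are to be read beside these shares. In bulk liver, more cells of a type and more RNA per cell cannot be told apart.

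By the background mark, 5 of the 10 fitted the label of switched-on genes. The rule used that mark, so this is a description and no test of the label. Slc5a9, Doc2a, Nefm, Tcfl5 and Rbpjl were well above background in all 4 furan livers and in no control liver, a pattern of 0.731% of all features. The software also sets a weaker mark, of a positive and significant signal. Doc2a, Nefm and Tcfl5 carried it in all 4 control livers, Slc5a9 in 2 and Rbpjl in 1, so not all of the 5 were without signal there. Npw, Ica1 and Nme4 were well above background in all 4 control livers, and Ropn1 and Ddit4l in 3 of them, so these 5 are brighter after furan rather than switched on. Every furan value lay above every control value for each of the 10, as for 19.2% of all features, and the rule used that contrast. The differences of the 10 had a median of 3.94, beside -0.03 over all features. For the 5 genes not well above background in control liver these measured differences rest on dim control values, and bounds are given with each gene. The smallest measured difference, 3.45 for Tcfl5, was reached by 0.296% of features, which include 41 others. Of these Cdca2 lay just above, at 3.46, and Cgref1 lay just outside, at 3.45.

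**Figure D1:**
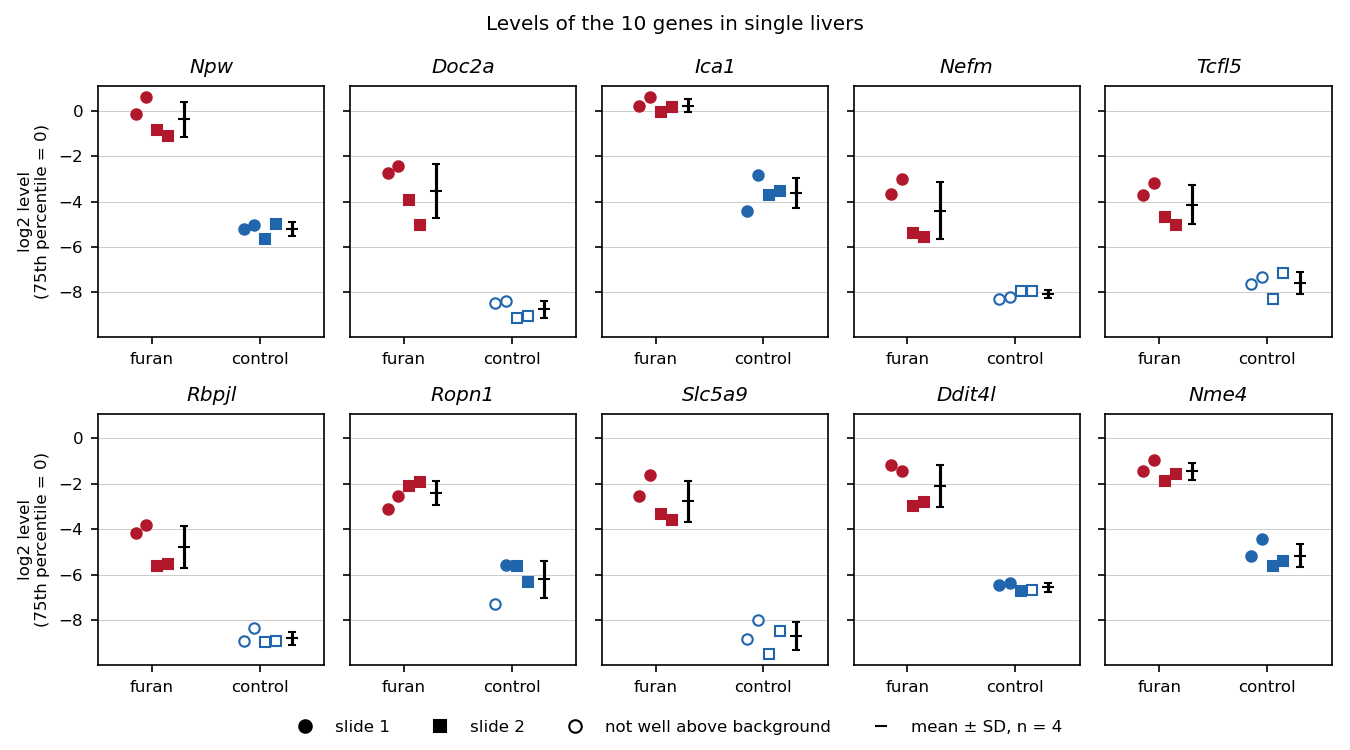
Log2 levels of the 10 genes in each liver, with furan on the left and control on the right of each panel; circles are slide 1, squares slide 2, open symbols are not well above background, and bars are mean ± SD (n = 4). No furan point overlaps a control point, and the furan circles sit above the furan squares in every panel but that of Ropn1.

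Npw, the precursor of neuropeptide W, which acts on a receptor of the brain and endocrine glands, was already measurable in control liver. Its levels were -0.14, 0.58, -0.84 and -1.13 in furan livers 1 to 4, against -5.20, -5.04, -5.66 and -4.99 in control livers 1 to 4. Only furan liver 2 passed the 75th percentile of its array, and all 4 control livers kept within 1 unit of each other. The means were -0.38 ± 0.77 in furan livers and -5.22 ± 0.30 in control livers (SD, n = 4 each), a difference of 4.84 or 28.7-fold. Its probe lies on rat chromosome 10 of build rn4 (chr10:13908194-13908253, minus strand), the build of all probe positions given here. Npb, which encodes the sister peptide neuropeptide B, was too dim to test, with 2 furan and 1 control liver well above background. It averaged -7.03 ± 0.57 in furan livers and -6.96 ± 0.33 in control livers.

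Slc5a9 encodes a sodium-coupled sugar carrier known from human work to take up mannose and glucose. Its levels were -2.54, -1.62, -3.33 and -3.61 in furan livers, against -8.83, -7.99, -9.47 and -8.47 in control livers. No control liver was well above background, though control livers 2 and 4 carried the software's weaker mark of a positive and significant signal, so the fold is given as a bound, at least 20.0-fold higher than the dimmest signal that counted as well above background on the control arrays. The measured difference was 5.92, which rests on control values not well above background. The probe, a single spot on chromosome 5 (chr5:133453629-133453688, minus strand), was matched by symbol and not by accession. Of the well-known glucose cotransporters, Slc5a1 and Slc5a2 were well above background in 2 furan livers each and were too dim to test. Slc5a1 was well above background in no control liver. Slc5a2 was so in control liver 2, at -4.65, above every furan liver (-7.26 to -6.72). Of the 20 carriers listed beside Slc5a9, 10 were tested, 3 rose and 0 fell, with a median difference of 0.02. Slc5a5, the iodide transporter of the thyroid, rose by 1.87 ± 0.28 (SE; adjusted p = 0.00216). Its levels were -3.95, -3.32, -4.39 and -4.38 in furan livers, against -5.36, -6.27, -5.86 and -6.03 in control livers, and the groups did not overlap. Slc5a6, the vitamin transporter, rose by 0.34 ± 0.09 (adjusted p = 0.0238), a call lost without control 2, 3 or 4 or furan 3 (adjusted p from 0.0537 to 0.0675). Slc5a4b rose by 1.23 ± 0.33 (adjusted p = 0.0205), a direction that turned to -0.15 with normexp background correction, and its call was lost without furan 2 (adjusted p = 0.0565).

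Doc2a encodes a calcium sensor with paired C2 domains that promotes vesicle release at nerve endings. Its levels were -2.74, -2.43, -3.92 and -5.04 in furan livers, against -8.45, -8.38, -9.11 and -9.04 in control livers. Furan liver 4 was the lowest of its group and still 3.34 above the highest control liver. The furan mean was at least 11.8-fold higher than the background bound of the controls, and the measured difference was 5.21. The probe lies on chromosome 1 (chr1:186031387-186031446, plus strand). Of its closest relatives, Doc2g averaged -4.86 ± 0.34 in furan livers and -4.86 ± 0.27 in control livers (difference 0.00, 95% interval -0.46 to 0.46), and Doc2b was not well above background on any array. Among 28 genes of C2-domain proteins and vesicle fusion with a probe, 20 were tested, 6 rose and 5 fell, with a median of 0.05. Rab3d, a GTPase of secretory granules, rose by 1.25 ± 0.23 (adjusted p = 0.00478).

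Ica1, islet cell autoantigen 1, is a membrane-curving protein of insulin granules and the Golgi. It read 0.23, 0.59, -0.06 and 0.15 in furan livers, against -4.42, -2.83, -3.70 and -3.54 in control livers. Control liver 2 was the highest of the controls and control liver 1 the lowest. The means were 0.23 ± 0.27 in furan livers and -3.62 ± 0.65 in control livers (SD, n = 4 each), a difference of 3.85 or 14.4-fold. The array carries 10 spots of this probe (chr4:33681009-33681068, minus strand), and the lowest furan spot, at -0.24 in furan liver 1, stood above the highest control spot, at -2.54 in control liver 2. Its relative Ica1l was not well above background on any array. Of 29 relatives and islet genes with a probe, 14 were tested, 4 rose and 1 fell, with a median of -0.15. Ptprn, a receptor-like protein of secretory granules, rose by 1.56 ± 0.30 (adjusted p = 0.00574), while Ins2, an insulin gene, fell by 1.14 ± 0.13 on the log2 scale (adjusted p = 0.000862). Rfx6, an islet transcription factor, rose by 1.02 ± 0.27 (adjusted p = 0.0194), but read -0.16 with normexp correction, and its call was lost without furan 2 (adjusted p = 0.0549). Chgb, a granule protein, had the largest difference of the list, 4.04 ± 1.23 (adjusted p = 0.0334), and 0.95 with normexp correction (adjusted p = 0.248). Its levels were -0.65, -4.39, -5.31 and -4.72 in furan livers, against -8.86, -4.82, -8.64 and -8.93 in control livers. Control liver 2, the 1 control liver well above background, lay among the furan livers, and the call was lost on leaving out any of control 1, 3 or 4 or furan 1 or 2 (adjusted p from 0.0501 to 0.0802).

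Nefm, the medium neurofilament chain, is a structural protein of large axons. Its levels were -3.67, -3.02, -5.37 and -5.58 in furan livers, against -8.27, -8.18, -7.94 and -7.95 in control livers. The furan livers split by slide, with livers 1 and 2 on average 2.13 above livers 3 and 4, whereas the control livers stayed within 1 unit of each other. In plain intensity this was 117, 197, 35.2 and 26.3 units in furan livers, against 2.67, 3.35, 4.32 and 3.97 units in control livers. The furan mean was at least 6.44-fold higher than the background bound, and the measured difference was 3.68. All 10 spots of the probe (chr15:47698645-47698704, minus strand) were well above background on every furan array, and none was on any control array. Of the chains that assemble with Nefm, Nefl was well above background in 2 furan livers and failed the filter, at -6.24, -6.31, -7.81 and -7.98 in furan livers, against -8.89, -6.01, -9.40 and -8.97 in control livers. Nefh averaged -3.91 ± 0.42 in furan livers and -4.44 ± 0.35 in control livers, a difference of 0.53 that did not pass (adjusted p = 0.125), and Ina failed the filter. Of 15 intermediate filament genes, 12 were tested, 2 rose and 2 fell, with a median of 0.15. The 2 that rose were the keratins of simple epithelia, Krt8 by 1.51 ± 0.21 (adjusted p = 0.0016) and Krt18 by 1.08 ± 0.17 (adjusted p = 0.00264). Those that fell were Nes, nestin, by 1.20 ± 0.25 on the log2 scale (adjusted p = 0.00749), a call that was lost with the mean of its probes (-0.46, adjusted p = 0.337), and Lmnb1, a nuclear lamin, by 1.00 ± 0.14 (adjusted p = 0.00161).

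Tcfl5 encodes a helix-loop-helix transcription factor of developing sperm cells. Its levels were -3.69, -3.17, -4.70 and -5.01 in furan livers, against -7.65, -7.31, -8.27 and -7.16 in control livers. The lowest furan liver was furan liver 4 and the highest control liver control liver 4, and the groups did not overlap. The furan mean was at least 7.74-fold higher than the background bound, with a measured difference of 3.45. The probe is a single spot (chr3:169712328-169712387, minus strand), matched by symbol. Of the germ-line relatives listed beside it, Figla failed the filter and Sohlh1 fell by 0.60 ± 0.15 on the log2 scale (adjusted p = 0.0173), a value of 0.00 without scaling between arrays and a call lost without furan 2 (adjusted p = 0.0519).

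Rbpjl encodes a relative of RBPJ, the DNA-binding partner of Notch, that works in the PTF1 complex driving digestive enzyme genes in pancreatic acinar cells. Its levels were -4.15, -3.80, -5.60 and -5.51 in furan livers, against -8.91, -8.36, -8.97 and -8.92 in control livers. Both furan livers of slide 1 again stood above both of slide 2. The furan mean was at least 5.03-fold higher than the background bound, and the measured difference was 4.03. The probe lies at chr3:155436530-155436589 on the plus strand. Rbpj averaged -2.46 ± 0.59 in furan livers and -2.45 ± 0.08 in control livers (difference -0.01, 95% interval -0.61 to 0.59). Ptf1a, the factor that RBPJL joins in acinar cells, was not well above background on any array. Of 27 RBPJ factors and acinar genes with a probe, 15 were tested, 2 rose and 2 fell, with a median of -0.07. Spink1, a trypsin inhibitor, rose by 1.03 ± 0.25 (adjusted p = 0.0148), a call lost when control 2 and furan 1 were both left out (0.84, adjusted p = 0.0663). Nr5a2, a nuclear receptor of liver and pancreas, fell by 0.81 ± 0.20 on the log2 scale (adjusted p = 0.0141).

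Ropn1 encodes ropporin, an anchoring protein in the fibrous sheath of the sperm tail. Its levels were -3.12, -2.53, -2.10 and -1.91 in furan livers, against -7.30, -5.55, -5.60 and -6.32 in control livers. It was the exception among the 10, with both furan livers of slide 2 above both of slide 1. The means were -2.41 ± 0.54 in furan livers and -6.19 ± 0.82 in control livers (SD, n = 4 each), a difference of 3.78 or 13.7-fold. Control liver 1 was the lowest and the least certain, since its 2 spots read -6.04 and -8.57. The probe lies at chr11:67915555-67915614 on the minus strand. Its closest relative moved too: Ropn1l, another protein of motile tails and cilia, rose by 2.40 ± 0.33 (adjusted p = 0.00164). Ropn1l had -3.41, -2.38, -3.88 and -3.98 in furan livers, against -5.48, -6.02, -5.87 and -5.86 in control livers, with no overlap. Of 29 sperm and germ cell genes with a probe, 8 were tested, 3 rose and 2 fell, with a median of 0.11, and 13 were not well above background on any array. The other risers were Spa17 by 0.76 ± 0.12 (adjusted p = 0.00274) and Odf2 by 0.58 ± 0.14 (adjusted p = 0.0156), genes of the sperm surface and of tail and centriole fibres, and the Odf2 call was lost with control 2 and furan 1 both left out (adjusted p = 0.0611).

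Ddit4l, also called REDD2, encodes an inhibitor of mTORC1 signalling. The probe bearing this symbol read -1.18, -1.45, -2.97 and -2.81 in furan livers, against -6.44, -6.36, -6.74 and -6.69 in control livers. The means were -2.10 ± 0.92 in furan livers and -6.56 ± 0.18 in control livers (SD, n = 4 each), a difference of 4.46 or 21.9-fold. The identity of this probe is uncertain: the array annotation puts it on chromosome 3 of rn4 (chr3:51880477-51880536, minus strand), whereas RefSeq has the gene on chromosome 2 of GRCr8, and its accession had no match. Of 17903 probes matched by accession, 99.5% kept their chromosome between those builds. Ddit4, the stress-induced sister gene, averaged -0.10 ± 0.31 in furan livers and -1.11 ± 0.81 in control livers. Its difference of 1.01 did not pass (adjusted p = 0.064) and passed without control 2, at 1.28 (adjusted p = 0.0276). The Ddit4 difference also passed with normexp correction, at 0.93 (adjusted p = 0.0279), and without scaling between arrays, at 1.61 (adjusted p = 0.012). Of 23 genes of mTORC1 control, 22 were tested, 5 rose and 2 fell, with a median of 0.08. Sesn3, a sestrin that also restrains mTORC1, rose by 1.31 ± 0.14 (adjusted p = 0.00069), and Eif4ebp1, a translation repressor that mTORC1 inactivates, rose by 0.91 ± 0.10 (adjusted p = 0.00069). Deptor, an mTOR inhibitor, fell by 0.93 ± 0.16 on the log2 scale (adjusted p = 0.00339).

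Nme4, the mitochondrial nucleoside diphosphate kinase, had 2 probes. The brighter read -1.45, -0.93, -1.86 and -1.55 in furan livers, against -5.19, -4.42, -5.62 and -5.40 in control livers. The other read -2.56, -2.35, -3.07 and -2.89 in furan livers, against -5.81, -3.94, -7.06 and -6.21 in control livers. Both put every furan liver above every control liver, and control liver 2 was the highest control on both. The differences were 3.71 (13.1-fold) and 3.04 (8.22-fold), with probes at chr10:15360388-15360447 and chr10:15360613-15360672 on the minus strand. Of 18 nucleoside diphosphate and adenylate kinase genes with a probe, 16 were tested, 7 rose and 4 fell, with a median of 0.31. Over all features 18.0% were called higher and 17.5% lower, with a median of -0.03. Nme1 rose by 0.93 ± 0.17 (adjusted p = 0.00425) and Nme2 by 0.79 ± 0.17 (adjusted p = 0.00905), the abundant cytosolic forms, while Nme3 fell by 1.02 ± 0.12 on the log2 scale (adjusted p = 0.00102). Nme3 had 0.86, 0.99, 1.20 and 1.23 in furan livers, against 2.16, 2.11, 2.19 and 1.91 in control livers. Nme5, a form of cilia and testis, rose by 3.18 ± 0.78 (adjusted p = 0.0149) but read 0.19 with normexp correction (adjusted p = 0.212). Its levels were -4.80, -4.49, -4.82 and -5.62 in furan livers, against -8.88, -5.43, -9.07 and -9.07 in control livers, so that control liver 2, the 1 control liver well above background, overlapped the furan livers.

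**Figure D2:**
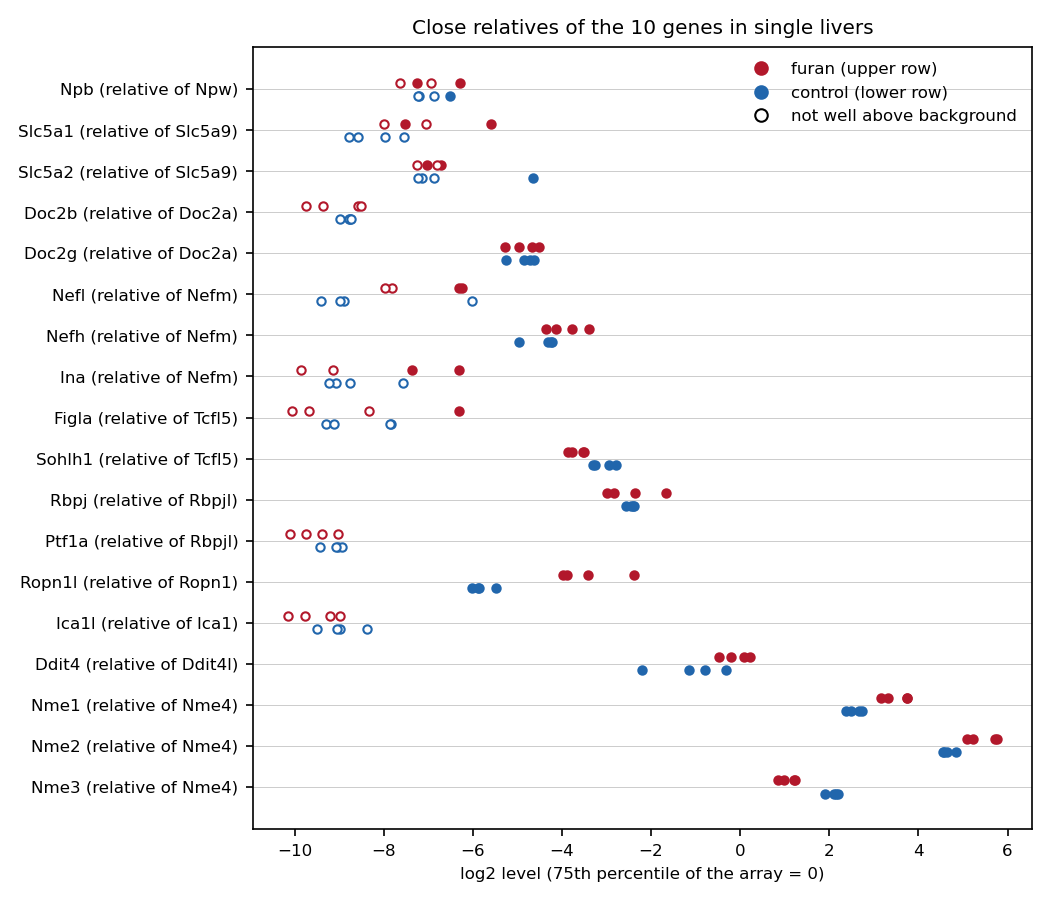
Log2 level of 18 close relatives of the 10 genes in each liver, with furan (upper row of each pair) and control (lower row), and open circles where the probe was not well above background. Ropn1l, Nme1 and Nme2 stand higher in furan livers and Nme3 and Sohlh1 lower, and most other relatives overlap between the groups.

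Over the 10 lists of related genes, 215 genes in all, 131 were tested, 32 rose and 21 fell, and the median difference was 0.02. All features gave 18.0% higher, 17.5% lower and a median of -0.03. REST, a repressor of neuronal genes outside the nervous system, and its partners had 14 tested genes, of which 0 rose and 3 fell. Rest itself fell by 0.67 ± 0.15 on the log2 scale (adjusted p = 0.0099), at -4.41, -4.76, -4.29 and -4.57 in furan livers, against -3.61, -3.82, -3.77 and -4.13 in control livers. Ctdsp1, a phosphatase that joins REST, fell by 0.74 ± 0.12 (adjusted p = 0.00324). Without scaling between arrays Rest read -0.08 and Ctdsp1 -0.14, and neither passed (adjusted p = 0.673 and 0.405), while the median of all features then stood at 0.56. The falls of Nes (-0.61, adjusted p = 0.0841), Deptor (-0.34, adjusted p = 0.101) and Nr5a2 (-0.21, adjusted p = 0.392) also lost their calls without scaling. Phf21a fell by 0.52 ± 0.15 (adjusted p = 0.0237), but read 0.068 without scaling, and its call was lost without control 1 or 3 or furan 2 (adjusted p from 0.0501 to 0.0664). The part of these changes in the differences of Npw, Doc2a or Nefm was not tested.

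A split between slides, which the rule did not use, ran through 9 of the 10 genes, and Ropn1 had the opposite order. In those 9, both furan livers of slide 1 lay above both furan livers of slide 2, as in 20.1% of all features. The same order held in 28 of the 41 other features with as large a difference and in 32.4% of the features called higher. A limma test of the difference itself, slide 2 minus slide 1 in the change after furan, called 0 of 17226 features, while 6.45% had an unadjusted p under 0.05. Nefm gave -2.42 (95% interval -3.20 to -1.64; adjusted p = 0.723), Rbpjl -1.27 (-2.03 to -0.52; adjusted p = 0.745), Ddit4l -1.26 (-1.79 to -0.73; adjusted p = 0.745) and Doc2a -1.24 (-2.41 to -0.06; adjusted p = 0.766). Nme4 gave 0.19 (-0.85 to 1.23; adjusted p = 0.949). On slide 1 alone the differences of the 10 ran from 3.61 to 6.33, and on slide 2 alone from 2.47 to 5.50, and 8 of the 10, all but Ropn1 and Nme4, had the larger difference on slide 1, as did 42.8% of all features.

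**Figure D3:**
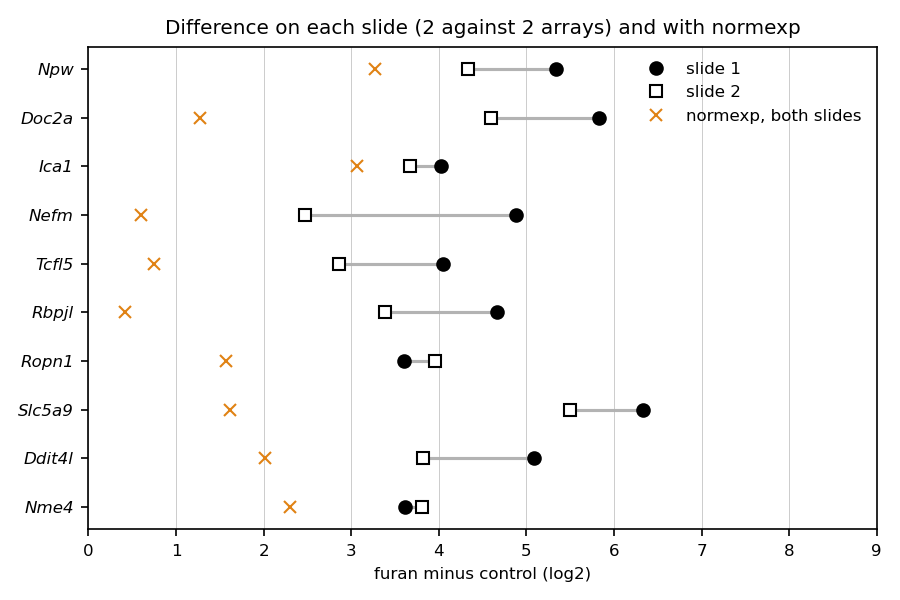
Furan minus control difference (log2) of each gene on slide 1 (filled circles) and slide 2 (open squares), 2 arrays of each group per slide, and with normexp background correction over all arrays (crosses). Nefm has the widest gap between slides, 4.89 against 2.47, and normexp draws every gene toward 0, with Rbpjl ending lowest at 0.42.

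The size of the differences depended on how background was handled. With normexp and an offset of 50, the 10 differences ran from 0.42 for Rbpjl to 3.27 for Npw, with a median of 1.59, in place of 3.45 to 5.92. All stayed above 0. The dim control values are near the floor of the assay: Doc2a, Rbpjl and Slc5a9 averaged -8.74, -8.79 and -8.69 in control livers, where the median of 308 negative control spots was -9.49 to -8.91. Nefm and Tcfl5, at -8.09 and -7.60 in control livers, read above the 95th percentile of those spots on each control array.

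Most markers of neurons and germ cells were not seen above background. Of 13 neuron markers with a probe, 8 were not well above background on any array, among them Syn1, Syp, Snap25, Stmn2 and Map2, and 0 of 4 tested were called. Uchl1, an enzyme of neurons, came closest, at -3.73, -3.87, -6.79 and -6.40 in furan livers, against -9.01, -5.17, -7.54 and -8.22 in control livers, and did not pass (adjusted p = 0.0996). The summed signal of the list, in units of the 75th percentile, was 0.399 to 0.476 on furan arrays and 0.318 to 0.501 on control arrays. Of 10 germ cell markers 8 were never above background, including Ddx4, Dazl, Tnp1 and Akap4, and their sum was 0.024 to 0.0501 on furan arrays and 0.0324 to 0.0471 on control arrays. Of 10 acinar markers 5 were never above background, including Prss1, Pnlip and Clps, with sums of 0.0785 to 0.139 on furan arrays and 0.0993 to 0.203 on control arrays. Among 10 neuroendocrine markers, Chgb rose and Ins2 fell, and Syp and Calca were never above background. None of the tested stellate cell, macrophage or lymphocyte markers was called (0 of 9, 0 of 8 and 0 of 4).

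Markers of dividing cells moved with the 10 genes. All 10 of them rose, Cdk1 by 3.07 ± 0.38 (adjusted p = 0.00109) and Mki67 by 2.47 ± 0.24 (adjusted p = 0.000518) among them, and their sum was 1.44 to 3.03 on furan arrays and 0.413 to 0.666 on control arrays. Their part in the result was not tested. Of 10 cholangiocyte markers 9 were tested, 2 rose, Epcam by 1.79 ± 0.36 (adjusted p = 0.00683) and Sox9 by 0.48 ± 0.13 (adjusted p = 0.02), and 1 fell. Their sum stood apart on furan array 1, at 10.1, and on control array 2, at 6.87. Control liver 2 was also the highest control for 7 of the 10 genes, as for 26.7% of all features. The sums of furan arrays 2, 3 and 4 were 4.32, 2.58 and 2.44, beside 2.43, 2.49 and 2.22 on control arrays 1, 3 and 4. Bright probes weigh most in such sums. Slc4a2, the marker that fell, was the brightest of the list on control arrays 1, 3 and 4. It read 0.18, -0.02, 0.12 and 0.24 in furan livers, against 0.85, 0.66, 0.57 and 0.57 in control livers. Near-equal sums therefore do not show that the other markers were unchanged. Epcam and Sox9 stood above every control liver in each furan liver. Epcam read 1.17, 0.60, 0.04 and -0.39 in furan livers, against -1.80, -0.69, -1.58 and -1.67 in control livers. Sox9 read -2.76, -3.06, -3.24 and -3.04 in furan livers, against -3.66, -3.53, -3.42 and -3.40 in control livers. With furan 1 and control 2 both left out, an alternative chosen after seeing the data, the 10 differences were 3.40 to 6.07. The part of cholangiocyte RNA in the result was not tested.

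**Figure D4:**
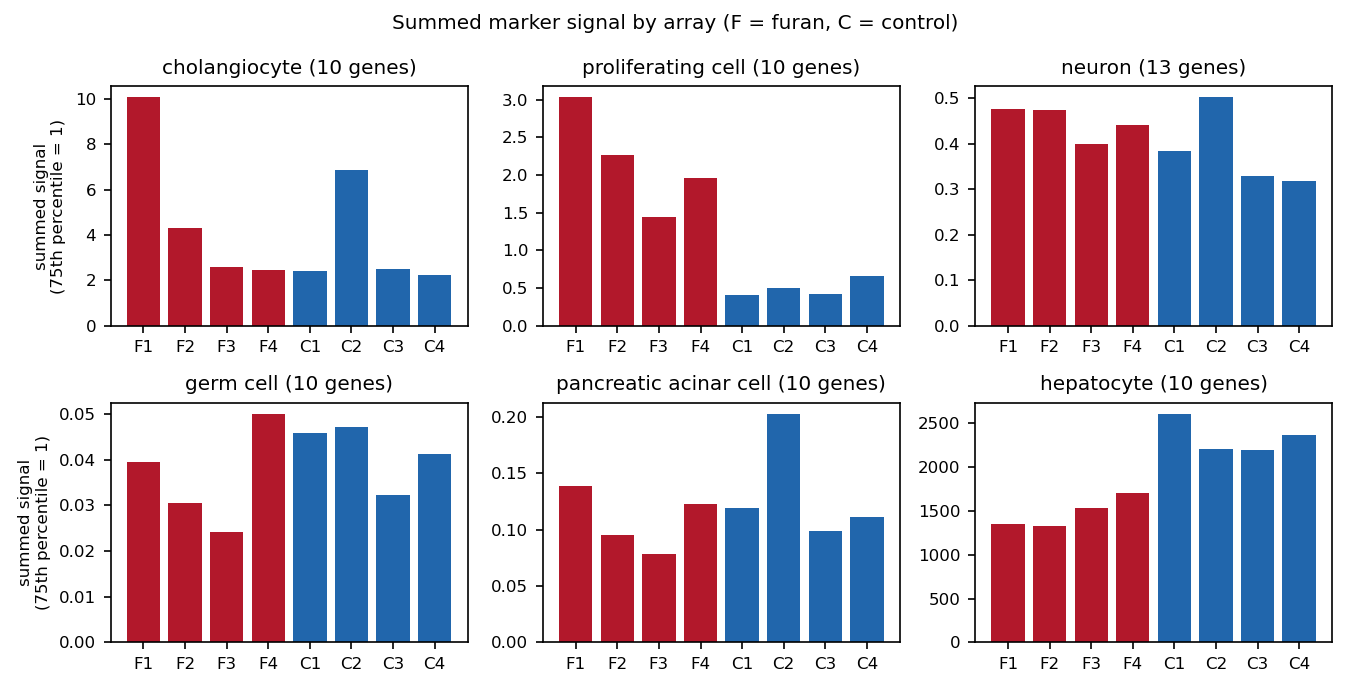
Summed signal of 6 marker lists on each array, in units of the array's 75th percentile (linear), with furan arrays F1 to F4 left of control arrays C1 to C4. Markers of dividing cells are higher on all 4 furan arrays, hepatocyte markers are lower, cholangiocyte markers peak on F1 and C2, and neuron, germ cell and acinar sums overlap between the groups.

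Of 40 protein-coding neighbours, the nearest 2 on each side in RefSeq order, 29 were tested, 4 rose and 2 fell, with a median of 0.08, beside 18.0% higher and 17.5% lower over all features. Those that rose were Spata6 beside Slc5a9 (1.25, adjusted p = 0.048), Umps near Ropn1 (0.40, adjusted p = 0.0386), Yae1l1 near Ica1 (0.40, adjusted p = 0.0257) and Matn4 beside Rbpjl. Matn4, an extracellular matrix gene of cartilage, rose by 3.76 ± 0.68 (adjusted p = 0.00425). Only 1 control liver was well above background for Matn4, so the size of this rise rests on dim control values. On the other side of Rbpjl, Sdc4, a cell-surface proteoglycan, fell by 0.97 ± 0.15 on the log2 scale (adjusted p = 0.00259), and Nherf2 beside Npw fell by 0.46 ± 0.11 (adjusted p = 0.0149). These neighbours were chosen for naming after their values were seen.

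RefSeq start-site windows (250 bases before and 50 after the start, build GRCr8) were at hand for 7 of the 10 genes, Npw, Ica1, Tcfl5, Rbpjl, Ropn1, Ddit4l and Nme4. Those of Npw, Ica1, Tcfl5 and Rbpjl are shown because they hold letters of the motifs searched and their probes lie on the chromosome of the gene. Each runs 5′ to 3′ on the strand of the gene, and capitals mark the matches.
Npw (chr10:14186078-14186377, minus strand): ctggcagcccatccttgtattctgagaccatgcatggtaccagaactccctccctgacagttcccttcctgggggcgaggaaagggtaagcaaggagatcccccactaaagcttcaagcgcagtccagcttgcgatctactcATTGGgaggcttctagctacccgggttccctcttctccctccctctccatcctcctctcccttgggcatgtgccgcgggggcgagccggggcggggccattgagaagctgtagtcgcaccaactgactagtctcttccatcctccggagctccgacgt
Ica1 (chr4:37770856-37771155, minus strand): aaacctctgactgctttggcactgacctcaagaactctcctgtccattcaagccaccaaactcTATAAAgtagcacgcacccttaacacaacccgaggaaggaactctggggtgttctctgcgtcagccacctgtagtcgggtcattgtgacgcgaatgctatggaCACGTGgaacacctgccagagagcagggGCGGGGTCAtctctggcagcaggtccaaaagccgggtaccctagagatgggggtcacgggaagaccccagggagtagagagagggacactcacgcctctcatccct
Tcfl5 (chr3:188131834-188132133, minus strand): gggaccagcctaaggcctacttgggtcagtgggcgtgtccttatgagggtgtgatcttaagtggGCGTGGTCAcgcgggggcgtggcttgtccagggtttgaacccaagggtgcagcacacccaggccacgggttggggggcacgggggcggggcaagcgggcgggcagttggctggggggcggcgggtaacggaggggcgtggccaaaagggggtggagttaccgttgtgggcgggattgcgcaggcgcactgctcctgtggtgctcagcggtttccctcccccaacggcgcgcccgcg
Rbpjl (chr3:173553248-173553547, plus strand): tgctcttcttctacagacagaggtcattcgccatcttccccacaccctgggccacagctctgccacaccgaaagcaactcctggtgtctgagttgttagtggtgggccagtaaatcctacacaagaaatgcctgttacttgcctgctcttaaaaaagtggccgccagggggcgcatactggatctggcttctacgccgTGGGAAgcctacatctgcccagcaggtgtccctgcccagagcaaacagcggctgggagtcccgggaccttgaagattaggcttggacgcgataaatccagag

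The capitals in Tcfl5 and in the last capitals of Ica1 are TGACNNNGC read on the opposite strand, the core of the antioxidant response element, which 12.2% of 27457 windows hold. Ica1 also holds the E-box CACGTG (6.65% of windows) and TATAAA (14.3%), Rbpjl holds TGGGAA, the core bound by RBPJ (25.1%), and Npw holds CCAAT on the opposite strand (37.7%). Ddit4l held CCAAT and TATAAA, and Nme4 and Ropn1 held none of the motifs. The letters of AP-1 (TGANTCA, in 7.33% of windows), the cAMP response element (TGACGTCA, 1.91%), E2F (TTTCCCGC, 1.03%, and TTTGGCGC, 0.521%) were in none of the 7. Both strands were searched, no 2 of these motifs overlapped in the 7 windows, and a match is a description of letters only. The median GC content of the 7 was 59.7%, beside 52.3% over all windows, and 2 of 7 had a CpG observed-over-expected ratio of at least 0.6, beside 36.9% of all windows.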

How the data were processed

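RNA of 8 liver samples, 4 furan and 4 control, was labelled with Cy3 and hybridised to 1-colour Agilent arrays, and the deposited scanner files, per the file headers, come from Agilent Feature Extraction 10.7. The main unit is the authors' deposited processed signal intensity per spot. The deposited series table holds the same signal scaled to each array's 75th percentile, on a linear scale, uncentred, with column medians of 91.5 to 125, and was used as an alternative. From these intensities, log2 levels relative to the 75th percentile of the 58717 gene spots were computed here, since the deposited values are not on the log2 scale. Unflagged spots were averaged per probe, and a probe entered the test if all 4 furan arrays or all 4 control arrays had it above background. The brightest probe stood for a gene. A probe counted as well above background where most of its usable spots did. Of 30197 probes, 22111 were named, 18383 by RefSeq accession and the rest by symbol, synonym or the array's own name.

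The 17226 features were fitted with limma 3.58.1 in R 4.3.3 (lmFit, eBayes), with Benjamini-Hochberg adjustment over all of them and a threshold of 0.05. The fit was tested on simulated data. No spot was saturated. Where no control array was well above background, the bound set the furan mean against, per control array, the higher of the probe's own level and the lowest probe level well above background. The number of arrays limits precision. Correlations between arrays were 0.979 to 0.993 within furan, 0.981 to 0.992 within control and 0.952 to 0.979 between groups.

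The 10 genes and all lists were chosen with earlier results of these data known. Genes named in the text are the 10, their close relatives, up to 3 rises and 3 falls per related list, the 5 genes most alike and markers. Neighbouring genes were added afterwards, and a long REST site of the first motif list and some genes of the related lists are not reported here. Alternatives were the background correction, scaling, filter, probe choice, spot flags, slide, replicate number and each array left out.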

Additional observations from a re-analysis of the deposited data

Results flagged for a closer look

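Of 120 groups of 4 values tested for a value far from the others, 9 held one, and chance flags about 1 in 20 groups. Among the 10 genes only Rbpjl was so marked: control liver 2 read -8.36, against -8.97 to -8.91 in the other controls, all of them not well above background. Control liver 2 also stood apart for Chgb, at -4.82 (others -8.93 to -8.64), for Nme5, at -5.43 (others -9.07 to -8.88), and for Tcf12, a partner of acinar factors, at -2.85 (others -2.65 to -2.62). Control liver 1 stood apart for Krt18, at 6.17 (others 5.53 to 5.59), for Nefh, at -4.96 (others -4.31 to -4.23), and for L1td1, at -7.47 (others -6.56 to -6.49). In furan livers, Slc5a6 read 1.74 in liver 3 (others 1.54 to 1.57) and Syt3, a synaptotagmin, -4.27 in liver 4 (others -5.18 to -5.04). The Syt3 fall of 1.08 ± 0.20 on the log2 scale (adjusted p = 0.00478) was lost when flagged spots were kept (-0.57, adjusted p = 0.504).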

How the results depend on the processing

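The differences of the 10 genes stayed above 0 under every alternative run. They were 3.13 to 6.19 over the 8 fits that left out 1 array. Requiring a signal well above background on all 8 arrays left 3 of them testable, Npw, Ica1 and Nme4, by its construction. The count of features called higher was 3099, and was 9196 without scaling, 436 on slide 1 alone, 959 on slide 2 alone and 2267 to 3060 with 1 array left out. The count called lower was 3023, and was 5544 with normexp (beside 2798 higher), 526 without scaling, 344 on slide 1, 756 on slide 2 and 1987 (without furan 2) to 3056 with 1 array left out. Of the related genes, 32 were called higher, and 70 without scaling, 4 on slide 1, 12 on slide 2 and 23 to 31 with 1 array left out; 21 were called lower, and 38 with normexp, 5 without scaling, 3 on slide 1, 5 on slide 2 and 15 to 21 with 1 array left out. Slide fits have 2 arrays a group. Without scaling, Ak7 (0.12), Phf21a (0.068), Rhpn2 (0.14) and Ulk1 (0.020) changed sign, and with normexp Cplx1 (-0.19), Rfx6 (-0.16) and Slc5a4b (-0.15) did; the cause was not tested. The replicate block gave 2468 higher and 2266 lower, and 25 and 20 of the related genes. Same-numbered livers did not deviate together in every pair (correlations -0.30, 0.13, 0.26 and 0.03), and not every furan liver correlated best with its own number, so the numbers were not taken as pairs. Leaving out control 2 and furan 1 together, chosen after seeing the data, gave 2595 higher and 2364 lower. Signal over background limits the 5 genes not well above background in control liver, for which folds are given as bounds.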

Other observations

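The named genes outside the group whose profile over the 8 arrays lay closest to the mean profile of the 10 were L1td1, Gucy2c, Saxo2, Insl6 and Hebp2, with root mean square differences of 0.333, 0.402, 0.404, 0.413 and 0.420 on the log2 scale. L1td1, an RNA-binding protein of pluripotent cells, read -1.69, -1.34, -2.54 and -2.89 in furan livers, against -7.47, -6.54, -6.49 and -6.56 in control livers. Gucy2c, the guanylin receptor of the intestine, read -2.76, -3.02, -4.17 and -4.15 in furan livers, against -7.67, -7.03, -8.92 and -7.70 in control livers. Insl6, a secreted peptide of the testis, read -3.70, -3.40, -4.45 and -5.08 in furan livers, against -7.97, -7.91, -9.08 and -7.54 in control livers. Each of these 3 was lower on slide 2 than on slide 1 in furan livers. They were picked for their likeness, so it is no test.

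Of 10 intestinal epithelium markers 7 were tested, 1 rose, 0 fell and 6 were not called. The median difference of the 7 was 2.50, beside -0.03 over all features. The 1 that rose, Fabp2, a fatty acid binding protein, was higher by 2.50 ± 0.21 (adjusted p = 0.000287), at 1.05, 0.86, 0.73 and 1.14 in furan livers, against -1.98, -1.86, -1.14 and -1.22 in control livers. Lgals4 read 2.53, -2.55, -5.16 and -5.05 in furan livers, against -7.96, -0.95, -8.18 and -7.20 in control livers, and did not pass (adjusted p = 0.221). Furan 1 and control 2, the arrays with the highest cholangiocyte sums of their groups, deviated together from their group means (correlation 0.53 over features, which are not independent).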
